A study of Rattus norvegicus with 6 samples.

Results

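Transcripts of 10 genes of the NF-kB system were measured in cultured smooth muscle cells of rat vessels, which give the vessel wall its contractile tone, after knockdown of the long noncoding RNA MIAT. The genes were chosen by symbol for their role, as the subunits Nfkb1, Nfkb2, Rela and Relb, the inhibitors Nfkbia, Nfkbib and Nfkbie, the ubiquitin-editing enzyme Tnfaip3, and the nuclear regulators Nfkbiz and Bcl3. All 10 were found among the 18631 genes of the count table, and all 10 passed the low-count filter that left 13423 genes. Polyadenylated RNA was sequenced in 3 libraries labelled MIAT knockdown, titled KD_M_1 to 3, and in 3 libraries titled Scr1 to 3 with the genotype label WT, called Scr control here. All 6 libraries carry one treatment text, siRNAs and ASOs (antisense oligonucleotides) at 50 nM in all for 72 h, and the labels do not say what the control cells received. The labels give neither the age nor the strain of the rats, the vessel the cells came from, or whether the libraries are separate cultures. The p-values without a block below therefore reflect the library-to-library spread alone, and that spread may be technical. Those with the library number as a block reflect only the spread left after differences between numbers are removed, which may be technical too.

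NF-kB is a family of transcription factors that work as dimers and drive inflammatory, survival and adhesion genes. In resting cells inhibitors of the IkB family hold the dimers in the cytoplasm, and cytokine receptors release them through the IKK kinase complex, which marks the inhibitors for degradation. Several members are themselves NF-kB targets, so the newly made inhibitors and the enzyme A20, encoded by Tnfaip3, close the response in negative feedback. In the vessel wall the pathway is known for the response of smooth muscle cells to injury and cytokines.

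Sequences at the promoters of the members are shown because several of these genes are known targets of NF-kB. RefSeq's windows of 300 bases on the rat assembly GRCr8, from 250 bases before to 50 bases after a transcript start, were found for 9 of the 10 genes, and both strands were searched for GGG, any 3 bases and TTCC, a core form of the kB motif that NF-kB dimers bind. The motif occurred in 6 of the 9 windows, 66.7%, against 1796 of all 33469 windows, 5.37%. The list was chosen for its role in NF-kB and holds known targets, so this excess gives no information about these libraries. The 8 matches are given 5′ to 3′ on the strand of the gene, with the 10 letters of the match in capitals, and a match on the opposite strand reads GGAA, any 3 bases and CCC.
Nfkb1, chr2:226805440-226805469, minus strand: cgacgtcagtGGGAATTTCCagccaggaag
Nfkb2, chr1:255108344-255108373, plus strand: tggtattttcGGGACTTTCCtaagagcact
Nfkbia, chr6:78597084-78597113, minus strand: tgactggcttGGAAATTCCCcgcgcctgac
Nfkbie, chr9:22948017-22948046, minus strand: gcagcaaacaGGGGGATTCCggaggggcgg
Nfkbiz, chr11:58251698-58251727, plus strand: tttttggcctGGGAATTTCCagcgtgtgga
Tnfaip3, 67 bases before the start, chr1:15544027-15544056, minus strand: tcacgtgactGGAAAGTCCCtcggaaatcc
Tnfaip3, 55 bases before the start, chr1:15544015-15544044, minus strand: aaagtccctcGGAAATCCCCctgtggcgaa
Tnfaip3, 10 bases before the start, chr1:15543970-15543999, minus strand: gcaaaaaaagGGAACTGCCCagtctgcagc
The match lay 20 bases before the start in Nfkb2, 31 in Nfkbia, 164 in Nfkbie, 13 in Nfkbiz and 67, 55 and 10 in Tnfaip3, counted from the first printed capital, and began at base 4 of the transcript in Nfkb1. The printed stretches 67 and 55 bases before the Tnfaip3 start overlap. Nfkb1 and Nfkbiz carried the same 10 letters. The windows of Rela, Nfkbib and Bcl3 held no match, which says only that these letters are not in these windows. The stretch before the annotated gene is given in full for Tnfaip3 and Nfkbiz, the 2 members that passed the test described below, with the matches inside these stretches in capitals.
Tnfaip3, chr1:15543994-15544229, minus strand: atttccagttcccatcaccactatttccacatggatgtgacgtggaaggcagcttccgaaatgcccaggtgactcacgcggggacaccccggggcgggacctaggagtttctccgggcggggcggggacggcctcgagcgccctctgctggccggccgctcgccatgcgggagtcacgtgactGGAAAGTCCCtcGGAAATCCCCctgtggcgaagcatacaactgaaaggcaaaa
Nfkbiz, chr11:58251471-58251719, plus strand: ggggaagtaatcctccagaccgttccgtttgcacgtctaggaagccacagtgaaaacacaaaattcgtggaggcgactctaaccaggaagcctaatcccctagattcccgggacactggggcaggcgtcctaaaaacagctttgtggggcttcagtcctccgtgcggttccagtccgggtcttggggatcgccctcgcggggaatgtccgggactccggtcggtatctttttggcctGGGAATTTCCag
The start of a window is that of 1 transcript, and the matches of Nfkb1, Nfkb2 and Nfkbia, and the Tnfaip3 match 10 bases before that start, lie inside the annotated gene. A match is a description of the letters and not a measured binding site.

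Total counts ranged from 18173111 to 18598394 in MIAT knockdown libraries and from 17793811 to 20121161 in Scr control libraries. The members held 215 to 6769 counts per library. Scr control library 3 stood apart, since its 10 most abundant genes held 14.0% of its counts, against 8.49% to 10.9% in the other 5 libraries, and it differed most from the libraries of its own group. The summed level of 7 smooth muscle markers was 5257 to 7648 CPM (counts relative to the TMM-scaled library total) in MIAT knockdown and 5928 to 7617 CPM in Scr control libraries, although Des stayed under 1 CPM. Of 7 macrophage markers, Ptprc, the pan-leukocyte marker, reached 0.052 CPM in 1 library and was at 0 in the other 5, and Adgre1 reached at most 0.17 CPM. The others were detected in all 6 libraries, Cd14 at 12.7 to 14.4, Cd68 at 2.36 to 10.5, Mrc1 at 1.98 to 11.3, Csf1r at 2.30 to 6.90 and Itgam at 1.28 to 4.64 CPM. The sum of the macrophage markers was 24.1 to 30.5 CPM in MIAT knockdown and 25.4 to 46.2 CPM in Scr control libraries. Of 7 endothelial markers, 4 stayed under 1 CPM, among them Cdh5, the endothelial cadherin, at 0.056 CPM or less in any library. Kdr reached 7.59, Erg 3.16 and Tek 2.68 CPM. The sum of the 7 endothelial markers was 5.36 to 6.28 CPM in MIAT knockdown and 7.63 to 10.3 CPM in Scr control libraries. The 6 fibroblast markers summed to 1439 to 1750.45 CPM in MIAT knockdown and 2038 to 2186 CPM in Scr control libraries, with 5 of them lower at an adjusted p under 0.05 in edgeR with the library number as a block, against 11.1% of all genes lower in that test. Without the block 0 of the 6 passed. In the same block fit 2 of the 7 smooth muscle markers, Myh11 and Lmod1, and the endothelial marker Kdr were lower (log2 fold changes of -0.51, -0.30 and -1.02, edgeR adjusted p = 0.0162, 0.0372 and 0.0148). Of 5 tested macrophage markers 0 passed in that fit, and 2 had a positive log2 fold change. The values of Cd68 and Mrc1 were -0.84 and -1.04 (edgeR adjusted p = 0.0539 and 0.0641). DESeq2 with the block called 1 macrophage marker lower, against 6.92% of all genes. The part of these differences in the results below was not tested. The 5 lymphocyte markers in the table summed to 0.697 to 0.934 CPM in MIAT knockdown and 0.535 to 1.19 CPM in Scr control libraries. In such bulk samples fewer cells of a type and less RNA per cell cannot be told apart. Miat itself was not analysed here, so the groups are named by their labels.

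Per unit of gene length, the inhibitor gene Nfkbia, the nuclear regulator Nfkbiz and the subunit gene Nfkb1 stood at the top of the family in both groups. In FPKM (the authors' values, relative to length and library total), Nfkbia stood at 76.9 ± 25.3 in MIAT knockdown and 46.9 ± 20.4 in Scr control libraries (SD, n = 3 each). Nfkbiz stood at 67.8 ± 12.2 FPKM in MIAT knockdown and 73.3 ± 14.5 FPKM in Scr control libraries, and Nfkb1 at 53.0 ± 7.98 FPKM in MIAT knockdown and 47.2 ± 8.29 FPKM in Scr control libraries. The ranges of the 3 overlapped among MIAT knockdown libraries, whereas among Scr control libraries that of Nfkbiz, 64.3 to 90.1 FPKM, did not reach down to that of Nfkb1, 38.5 to 55.0 FPKM. Rela followed at 24.8 ± 0.183 FPKM in MIAT knockdown and 24.8 ± 1.11 FPKM in Scr control libraries, with no library in reach of Nfkbia or Nfkb1 above it or Nfkb2 below it. Nfkb2 came next, at 15.5 ± 1.09 FPKM in MIAT knockdown and 13.5 ± 4.76 FPKM in Scr control libraries. The remaining 5 genes lay close together with means of 8.24 to 13.6 FPKM in MIAT knockdown and 7.12 to 9.31 FPKM in Scr control libraries. By group mean Nfkbie was the lowest of the 10 in MIAT knockdown, where Tnfaip3 ranked sixth, and Tnfaip3 was the lowest in Scr control, although at 11.0 FPKM in Scr control library 1 it lay above Relb, Nfkbib, Nfkbie and Bcl3 there.

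**Figure D1:**
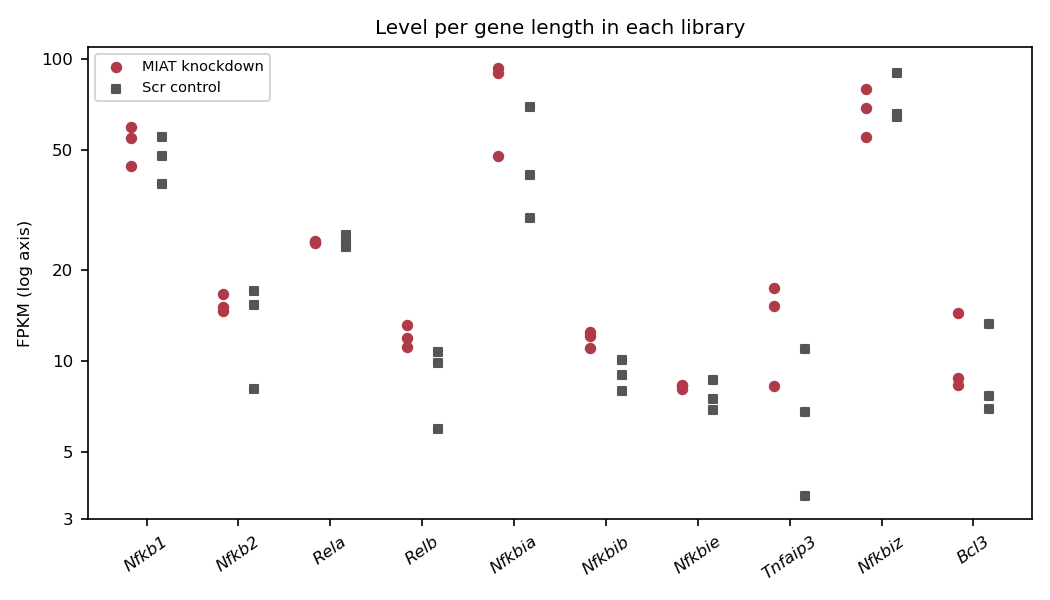
FPKM of the 10 genes on a log axis, ordered by role, with each point 1 library of the MIAT knockdown group (circles, left) or the Scr control group (squares, right). Nfkbia, Nfkbiz and Nfkb1 lie highest in both groups, and Tnfaip3 spreads from 3.58 FPKM in Scr control library 3 to 17.5 FPKM in MIAT knockdown library 1.

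With same-numbered libraries treated as pairs, 1 of the 10 genes rose and 1 fell in the libraries labelled MIAT knockdown. Tnfaip3, the brake that acts on the ubiquitin chains of receptor complexes, rose 1.84-fold, and Nfkbiz, a nuclear cofactor that lets NF-kB reach secondary response genes, fell by 0.22 on the log2 scale. Relb, Nfkbia and Nfkbib were also higher in every pair but did not pass the test, and Rela was lower in every pair and did not pass. Nfkb1, Nfkb2, Nfkbie and Bcl3 differed in direction between pairs. The words rose and fell refer here to an adjusted p under 0.05 in edgeR's quasi-likelihood test with the library number as a block and Benjamini-Hochberg adjustment over all 13423 genes, a test that called 21.6% of all genes, 10.5% as higher and 11.1% as lower. The 2 called members of 10 are near that share. The even split holds for TMM scaling, since with the block total count scaling called 2822 genes higher and 819 lower, and log2(FPKM + 1) 2392 higher and 465 lower. Among the members total count scaling called 4 higher (Relb, Nfkbia, Nfkbib and Tnfaip3) and 0 lower, and the FPKM scales called Nfkbib alone, as higher. Without the block edgeR called 0 of the 13423 genes and 0 of the members, with 2576 genes and, among the members, Nfkbib alone at an unadjusted p under 0.05, and limma-voom also called 0. DESeq2 without the block called 699 genes, 5.21%, of which 2.73% of all genes were higher and 2.47% lower, and 0 members. DESeq2 with the block called 1590 genes, 11.8%, with 4.92% higher and 6.92% lower, and 0 members.

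**Figure D2:**
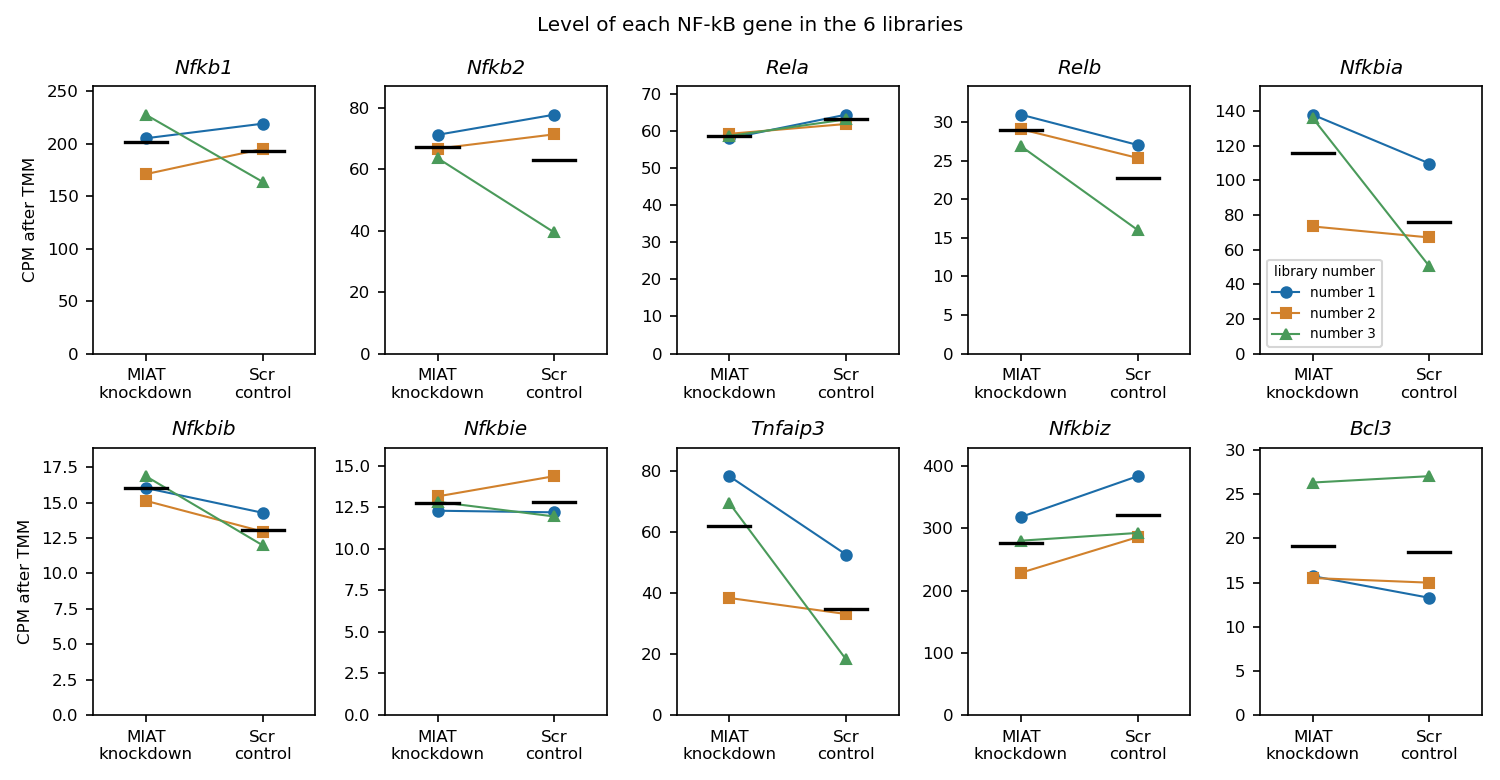
CPM after TMM scaling of each gene in the 3 MIAT knockdown libraries (left of each panel) and the 3 Scr control libraries (right), with lines joining libraries of the same number and black bars at the group means. The line of number 3 is the steepest for Tnfaip3, Nfkbia, Relb and Nfkb2, where Scr control library 3 is the lowest point.

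Neither subunit of the classical dimer passed the test. Rela encodes p65, the subunit that carries the transcription activation domain of the classical dimer. It stood at 57.9, 59.2 and 58.6 CPM in MIAT knockdown libraries 1 to 3 and at 64.3, 61.8 and 63.1 CPM in Scr control libraries 1 to 3. The groups did not overlap and each MIAT knockdown library lay below its same-numbered control, yet the log2 fold change was only -0.11 ± 0.060 (SE, edgeR with the block, adjusted p = 0.239). This direction depends on the scaling, since with total counts in place of TMM the value was 0.00097, and the FPKM means above were alike. Groups that do not overlap were found for 2 of the 10 members, Rela and Nfkbib, and for 26.0% of all genes, 14.2% higher and 11.8% lower. Nfkb1, which encodes the precursor p105 and its product p50, had 205, 171 and 228 CPM in MIAT knockdown libraries 1 to 3 and 219, 195 and 164 CPM in Scr control libraries 1 to 3. It was lower in pairs 1 and 2 and higher in pair 3, and the groups overlapped (log2 fold change 0.06 ± 0.11, edgeR with the block, adjusted p = 0.727).

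The subunits of the non-canonical branch were low in Scr control library 3. Nfkb2, which encodes the precursor p100 and its product p52, had 71.3, 66.8 and 63.7 CPM in MIAT knockdown libraries 1 to 3 and 77.8, 71.4 and 39.5 CPM in Scr control libraries 1 to 3. Relb, the usual partner of p52, had 31.0, 29.1 and 26.9 CPM in MIAT knockdown libraries 1 to 3 and 27.0, 25.4 and 16.0 CPM in Scr control libraries 1 to 3. In both genes the lowest of the 6 values was that of Scr control library 3, and Scr control library 1 reached the range of the MIAT knockdown libraries or lay above it. The log2 fold change with the block was 0.14 ± 0.14 for Nfkb2 (edgeR adjusted p = 0.498) and 0.37 ± 0.12 for Relb (edgeR adjusted p = 0.0524). Without Scr control library 3 the value of Nfkb2 in the fit without the block turned to -0.15, and that of Relb was 0.14. The ratio of Nfkb2 to Relb in FPKM, which no library scaling can move, was 1.27, 1.27 and 1.31 in MIAT knockdown libraries. In Scr control libraries it was 1.59, 1.55 and 1.36, so the groups did not overlap in it. The other ratios computed, given below, overlapped between groups, and how often ratios of other genes separate was not tested. A bias by gene length could move it, since the lengths were 4515 and 2492 bases. With a length correction and the block the log2 fold changes were 0.19 for Nfkb2 and 0.35 for Relb.

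Among the cytoplasmic inhibitors, Nfkbia and Nfkbib were higher in all 3 pairs and Nfkbie was not. Nfkbia encodes IkB-alpha, the inhibitor that is resynthesized fastest after activation. It had 138, 73.4 and 136 CPM in MIAT knockdown libraries 1 to 3 and 110, 67.0 and 50.3 CPM in Scr control libraries 1 to 3. Library 1 lay above library 2 in both groups, while library 3 was high in MIAT knockdown and the lowest of all in Scr control. The log2 differences within pairs 1 to 3 were 0.33, 0.13 and 1.44, and edgeR with the block gave 0.63 ± 0.20 (adjusted p = 0.0593). Of 13 fits with the block, 5 called Nfkbia, 3 Nfkbib and 2 Relb, against 9 that called Tnfaip3 and 6 that called Nfkbiz. Those that called Nfkbia were limma-voom, total count scaling, no filter on low counts, and the fits without pair 1 and without pair 3. Relb was called with total count scaling and with no filter. Nfkbib, which encodes the more slowly replaced IkB-beta, had 16.0, 15.1 and 16.9 CPM in MIAT knockdown libraries and 14.3, 12.96 and 12.0 CPM in Scr control libraries. Its groups did not overlap, the log2 fold change was 0.29 ± 0.11, and the edgeR adjusted p was 0.0859 with the block. Nfkbie, which encodes IkB-epsilon, stayed between 12.3 and 13.1 CPM in MIAT knockdown and between 11.9 and 14.4 CPM in Scr control libraries, with a log2 fold change of -0.01 ± 0.11 (edgeR with the block, adjusted p = 0.979).

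Tnfaip3 showed the widest range of the 10 genes and the largest change. It had 78.3, 38.4 and 69.5 CPM in MIAT knockdown libraries 1 to 3 and 52.6, 33.1 and 18.3 CPM in Scr control libraries 1 to 3. It followed the pattern of Nfkbia, with library 1 above library 2 in both groups and a wide split between the libraries numbered 3, and the groups overlapped. The log2 differences within pairs 1 to 3 were 0.57, 0.21 and 1.93, and the fitted log2 fold change was 0.88 ± 0.26 (edgeR with the block, adjusted p = 0.0414). The call ended in DESeq2 with the block (0.88, adjusted p = 0.269), in limma on log2(FPKM + 1) and log2(FPKM + 0.1) with the block (0.90 and 0.9999, adjusted p = 0.0685 and 0.0692) and in edgeR without pair 2 (1.22, adjusted p = 0.0509). Without pair 3 the log2 fold change was 0.41 for Tnfaip3 and 0.23 for Nfkbia, so the size of both rests on the pair that holds Scr control library 3. The ratio of Tnfaip3 to Rela in FPKM was 0.698, 0.335 and 0.612 in MIAT knockdown libraries 1 to 3 and 0.422, 0.276 and 0.149 in Scr control libraries 1 to 3, higher in every pair. That of Nfkbia to Rela was 3.72, 1.94 and 3.62 in MIAT knockdown libraries and 2.66, 1.69 and 1.25 in Scr control libraries, again higher in every pair. In CPM both genes were higher and Rela lower in every pair, so these directions were fixed and add no support. The ratio of Nfkb1 to Rela was 1.79 in MIAT knockdown and 1.96 in Scr control library 2, and that of Nfkbia to Nfkbib 4.33 and 4.62. Both were lower in pair 2 and higher in pairs 1 and 3. The ratio of Nfkbia to Nfkbie was higher in every pair.

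Of the nuclear regulators, Nfkbiz fell and Bcl3 did not pass. Nfkbiz had 318, 229 and 280.1 CPM in MIAT knockdown libraries 1 to 3 and 384, 286 and 293 CPM in Scr control libraries 1 to 3. Each MIAT knockdown library lay below its same-numbered control, by log2 differences of -0.27, -0.32 and -0.06, although the groups overlapped. The fitted log2 fold change was -0.22 ± 0.064 (edgeR with the block, adjusted p = 0.0430). The call ended with total count scaling (-0.11, adjusted p = 0.293) and in limma on log2(FPKM + 1) and log2(FPKM + 0.1) (-0.11 in both, adjusted p = 0.337 and 0.335), and also in DESeq2 (-0.23, adjusted p = 0.0524), with a correction for gene length (-0.19, adjusted p = 0.0835), and when pair 1 (-0.19, adjusted p = 0.218) or pair 2 (-0.17, adjusted p = 0.299) was left out, all with the block. Bcl3, a nuclear partner of p50 and p52 dimers, had 15.7, 15.5 and 26.3 CPM in MIAT knockdown libraries 1 to 3 and 13.3, 15.0 and 27.0 CPM in Scr control libraries 1 to 3. It was high in both number 3 libraries, and its log2 fold change was 0.08 ± 0.096 (edgeR with the block, adjusted p = 0.601).

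**Figure D3:**
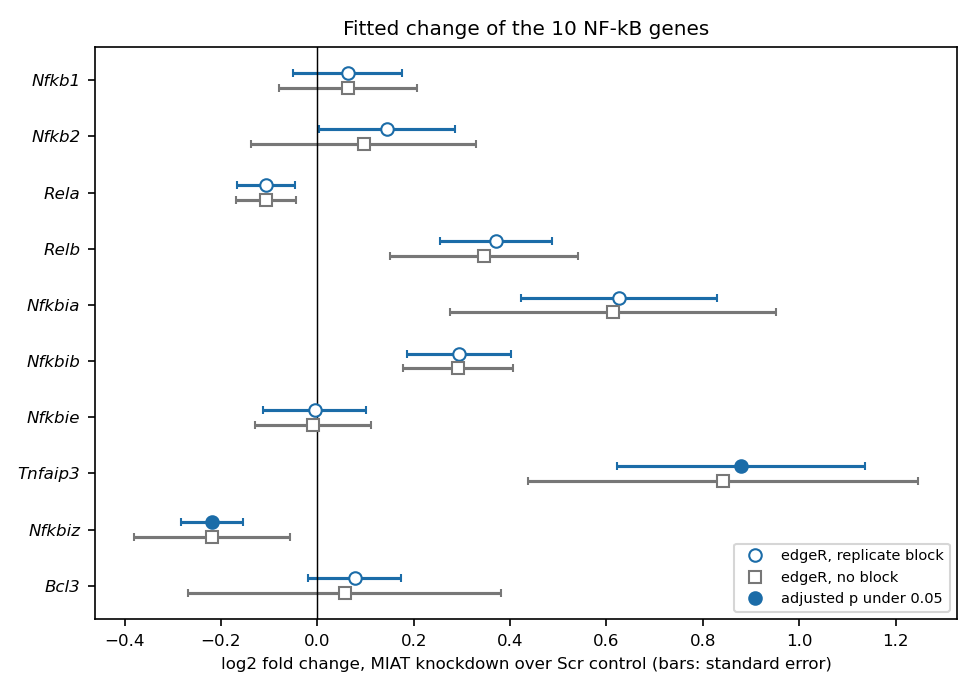
Fitted log2 fold change of MIAT knockdown over Scr control for each gene, with bars of 1 standard error, from edgeR with the library number as a block (circles) and without it (squares). Filled symbols, Tnfaip3 at 0.88 and Nfkbiz at -0.22 in the block fit, have an adjusted p under 0.05.

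Seen by pair, 4 members (Relb, Nfkbia, Nfkbib and Tnfaip3) were higher in all 3 pairs, against 28.0% of all genes, and 2 (Rela and Nfkbiz) were lower in all 3, against 28.5%. The median log2 difference of the 10 members was 0.09, -0.01 and 0.48 in pairs 1, 2 and 3, against 0.00, -0.01 and -0.00 for all genes. Scr control library 3 held the lowest of the 6 values in 7 of the 10 members, against 22.8% of all genes. The highest value was 4.29 times the lowest in Tnfaip3, 2.74 times in Nfkbia and 1.11 times in Rela, which placed their ranges at the 92.9th, 85.6th and 2.04th percentile of all tested genes. Over all members the median log2 fold change was 0.08 without and 0.11 with the block, beside -0.01 and -0.01 for all tested genes. Total count scaling raised the median of all genes to 0.09 and that of the members to 0.19 without the block. Directions in CPM and in fits with TMM are relative to that scaling. The FPKM means above are relative to the library total, and on log2(FPKM + 1) the median of all genes was 0.07.

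**Figure D4:**
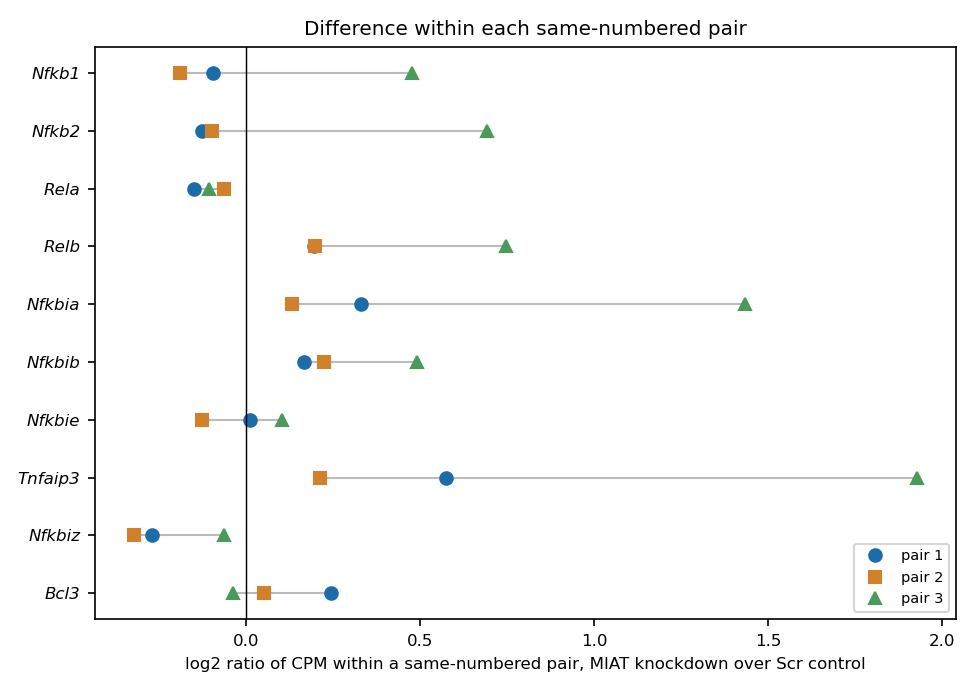
The log2 ratio of CPM, MIAT knockdown over Scr control, within each same-numbered pair, with 1 symbol per pair and a grey line over their range. Pair 3 lies to the right of pairs 1 and 2 in 8 of the 10 genes but not in Rela and Bcl3, and Tnfaip3 reaches 1.93 there against 0.57 and 0.21.

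Over the 6 libraries, the Pearson correlation of log2 CPM with that of Nfkbia was 0.98 for Tnfaip3, 0.88 for Nfkbib and 0.86 for Nfkb1, and -0.51 for Rela and -0.18 for Nfkbie. Among 10468 other genes of at least 5 CPM, the patterns most like Nfkbia were those of Pygm, the muscle glycogen phosphorylase, at 0.98, the uncharacterized LOC120093622 at 0.98 and Stradb, a pseudokinase gene, at 0.98. These libraries share groups and numbers, so the values describe likeness only.

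Pathway genes outside the member list were called in both directions, as all genes were. Of 64 genes of receptors, adaptors, kinases, ubiquitin enzymes and further family members, 59 were tested. The block fit had 3 rising, 7 falling and 49 below the threshold, against 21.6% called among all genes. The balance turned with the scaling, to 7 higher and 3 lower with total count scaling and 4 higher and 0 lower with log2(FPKM + 1), both with the block. The list median was -0.05, beside -0.01 for all genes. Without the block 0 passed in edgeR, with 8 at an unadjusted p under 0.05, and 0 passed in DESeq2. DESeq2 with the block called 4, against 11.8% of all genes.

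The remaining family members Rel, the c-Rel subunit, and Nfkbid, a nuclear IkB protein, did not pass. Rel had 13.3, 8.64 and 8.51 CPM in MIAT knockdown libraries and 10.7, 9.03 and 6.32 CPM in Scr control libraries. Of 17 receptors 13 were tested, and 1 rose, 1 fell and 11 did not pass. The same fit called 21.6% of all genes, 10.5% higher and 11.1% lower. Tnfrsf12a, the receptor of the cytokine TWEAK and an inducer of the non-canonical branch, rose to 405, 353 and 301 CPM in MIAT knockdown libraries, against 359, 311 and 182 CPM in Scr control libraries (log2 fold change 0.36 ± 0.10, edgeR with the block, adjusted p = 0.0384). Il18r1, a subunit of an interleukin receptor, fell to 5.26, 3.81 and 5.19 CPM in MIAT knockdown libraries, against 13.04, 8.30 and 5.41 CPM in Scr control libraries (-0.85 ± 0.24, edgeR with the block, adjusted p = 0.0348). Both receptors differed in each pair in the stated direction, although Il18r1 by only -0.06 on the log2 scale in pair 3. The Il18r1 groups did not overlap. Groups lower with no overlap, as also in Ripk1 and C3 below, were found for 11.8% of all genes. With the block the call of Il18r1 ended without pair 1 or pair 2, and that of Tnfrsf12a without pair 2.

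Of 19 adaptors and proximal kinases, 2 rose, 2 fell and 15 did not pass, against 10.5% of all genes higher and 11.1% lower. Irak3, which holds back Toll-like and interleukin-1 receptor signalling, fell to 136 ± 33.9 CPM in MIAT knockdown, against 183 ± 20.4 CPM in Scr control libraries (n = 3 each), with a log2 fold change of -0.45 ± 0.081 (edgeR with the block, adjusted p = 0.00824). Ripk1, the kinase that scaffolds signalling at the TNF receptor, fell to 33.1, 40.8 and 36.7 CPM in MIAT knockdown libraries, against 41.3, 49.0 and 53.9 CPM in Scr control libraries, with no overlap (-0.38 ± 0.078, adjusted p = 0.0119). Tradd, the adaptor of the same receptor, rose to 22.7 ± 2.89 CPM in MIAT knockdown, against 17.6 ± 3.76 CPM in Scr control libraries (0.38 ± 0.093, adjusted p = 0.0230). Traf2, a ubiquitin ligase of TNF receptor complexes and outside the rule for named genes, was chosen after its values were seen and rose by 0.28 (adjusted p = 0.0412, each from edgeR with the block).

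Of 8 IKK and related kinase genes, 1 fell and 7 did not pass, against 10.5% of all genes higher and 11.1% lower. Ikbke, which encodes the IKK-related kinase IKK-epsilon, fell to 28.8 ± 1.64 CPM in MIAT knockdown, against 35.5 ± 1.40 CPM in Scr control libraries (n = 3 each). Of 17 tested enzymes and cofactors of ubiquitin editing and protein turnover, 3 fell, 0 rose and 14 did not pass, against those same shares. These were Sharpin, a subunit of the linear ubiquitin ligase, at 25.9 ± 1.64 CPM in MIAT knockdown and 31.6 ± 0.866 CPM in Scr control libraries, Cyld, a deubiquitinase that restrains NF-kB, at 49.0 ± 6.19 CPM in MIAT knockdown and 59.1 ± 8.44 CPM in Scr control libraries, and N4bp1, a binding partner of the ubiquitin ligase NEDD4. Their log2 fold changes were -0.29, -0.27 and -0.26. Of the 10 pathway genes and 5 target genes called with the block, leaving out pair 1 kept 7, leaving out pair 2 kept 3, and leaving out pair 3 kept 14. These fits called 1195, 736 and 4124 of all genes, against 2898 with all pairs, and the kept counts rank as those totals do. Ikbke, Sharpin, Cyld and N4bp1 were not called in DESeq2, with total count scaling or on either FPKM scale, all with the block. Il18r1, Irak3, Ripk1 and C3 were not called on either FPKM scale, and Tradd, Traf2 and Ier3 were not called in DESeq2, again with the block. With the length correction and the block, Tnfrsf12a, Tradd, Cyld and N4bp1 were not called. Without Scr control library 3 the value of Tnfrsf12a in the fit without the block was 0.07, against 0.31 with all libraries. The 3 called without pair 2 were Ier3, Csf1 and Gadd45b.

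**Figure D5:**
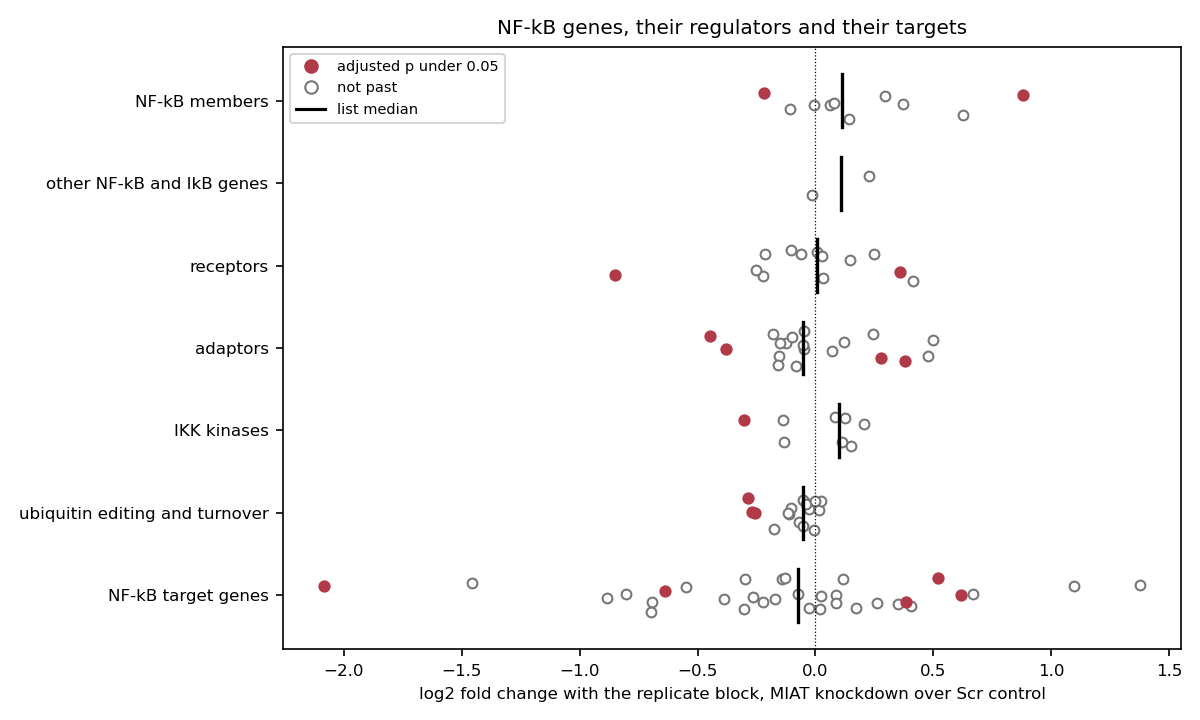
Log2 fold change with the library number as a block for each tested gene of the member list, the pathway lists and the target list, with filled points for an adjusted p under 0.05 and a black line at each list median. The medians of the pathway lists run from -0.05 (ubiquitin editing and turnover) to 0.11 (other NF-kB and IkB genes), beside 0.11 for the members. The target genes span from -2.08 (Tnf) to 1.38 (Csf2).

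Known NF-kB target genes spread widely and split by pair. Of 36 listed genes 33 were tested. The block fit had 3 rising, 2 falling and 28 below the threshold, against 21.6% called among all genes. The list median was -0.08 with the block and -0.24 without it. Without the block 0 passed in edgeR, with 2 at an unadjusted p under 0.05, and 2 passed in DESeq2, against 5.21% of all genes. Tnf, the cytokine that activates the pathway, had 1.25, 0.322 and 0.779 CPM in MIAT knockdown libraries 1 to 3 and 7.31, 2.75 and 1.07 CPM in Scr control libraries 1 to 3, a low level. It fell by 2.08 on the log2 scale (SE 0.45, edgeR with the block, adjusted p = 0.0144). The call ended with log2(FPKM + 1) (-0.93, adjusted p = 0.0518), without pair 1 (-1.68, adjusted p = 0.113) and without pair 2 (-1.71, adjusted p = 0.101), and in the fit without the block the value of -2.23 became -1.28 without Scr control library 1. C3, the central complement component, fell to 231, 237 and 260 CPM in MIAT knockdown libraries, against 438, 409 and 298 CPM in Scr control libraries, with no overlap (log2 fold change -0.64 ± 0.12, edgeR with the block, adjusted p = 0.00886). Ier3, an early response gene of cell survival, rose to 481, 291 and 395 CPM in MIAT knockdown libraries 1 to 3, against 358, 235 and 180.5 CPM in Scr control libraries 1 to 3 (0.62 ± 0.14, adjusted p = 0.0151). Csf1, a macrophage growth factor, and Gadd45b, a stress sensor gene, lay outside the rule for named genes and rose by 0.39 and 0.52 (adjusted p = 0.00964 and 0.00865, edgeR with the block).

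Within pairs, 19 of the 33 target genes, 57.6%, were lower in MIAT knockdown in pairs 1 and 2 and higher in pair 3, a pattern of 9.75% of all genes and of 2 of the 10 members, Nfkb1 and Nfkb2. The median log2 difference of the targets was -0.47, -0.38 and 0.72 in pairs 1, 2 and 3. Il6 and Cxcl1, an interleukin and a chemokine gene chosen after their values were seen, illustrate it. Il6 had 565, 388 and 395 CPM in MIAT knockdown libraries 1 to 3 and 944, 537 and 239.5 CPM in Scr control libraries 1 to 3. Cxcl1 had 2022, 860 and 1791 CPM in MIAT knockdown libraries 1 to 3 and 3278, 1282 and 975 CPM in Scr control libraries 1 to 3. In both genes the controls spanned more than the knockdown libraries, and neither passed with the block (edgeR adjusted p = 0.619 and 0.728). Scr control library 3 was the lowest of 6 in 18 of the 33 targets, 54.5%, against 22.8% of all genes. Another 9 of the 33 targets, 27.3%, were higher in MIAT knockdown in all 3 pairs, as were the feedback genes Tnfaip3 and Nfkbia, against 28.0% of all genes.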

How the data were processed

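The deposited files hold unnormalized counts for each gene symbol. The authors also deposited FPKM values, which equalled the count divided by 1 length per gene and the library's total for 100% of values above 0 (relative tolerance 1e-06). The aligner, counter, strand setting and build were not given in the sources used here. Counts were normalized with TMM and filtered with filterByExpr in edgeR 4.0.16 (R 4.3.3), which left 13423 of 18631 genes, and the groups were compared with the edgeR quasi-likelihood test, Benjamini-Hochberg adjusted over all tested genes at 0.05. Scripts were tested on simulated data. Library numbers were judged to pair the libraries because deviations from group means of same-numbered libraries correlated across genes at 0.68, 0.52 and 0.58, with -0.56 to -0.05 for other numbers. The primary design has no block. Because the numbers were judged from these same data to pair the libraries, calls in the text are those with the block. The result without it stands beside them. The labels do not state a pairing beyond these numbers. Deviations from a mean cancel, so the contrast is partly built in. With 4 residual degrees of freedom and no block, the coefficient of variation between libraries estimated by edgeR was 19.7%, and with the block and 2 it was 8.09%. Within groups, chi-square per degree of freedom between libraries was 21.6 to 37.0, and 57.4 and 89.8 for the comparisons with Scr control library 3, so none was a copy.

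Alternatives were DESeq2 1.42.0, limma-voom (limma 3.58.1), limma-trend on log2(FPKM + 1) or + 0.1, DESeq2 size factors, total count scaling, no filter or at least 1 CPM in 3 libraries, a loess correction for gene length (span 0.5), and leaving out libraries or pairs. The members and gene lists were chosen with earlier results of these data known. All members are named, and of each pathway or target list up to 3 genes called with the block and most changed in size, or the most abundant gene where none passed. Promoter windows are RefSeq's on GRCr8. Reads of overlapping genes cannot be assigned without a stated strand setting. The genes most like Nfkbia in pattern are named, and those most like Nfkb1 are not reported here.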

Additional observations from a re-analysis of the deposited data

How the results depend on the processing

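Without the block, edgeR called 0 genes with every other scaling, filter, correction or left-out library, as did limma-voom and limma on FPKM, while DESeq2 called 699 genes, 0 members, 0 pathway genes and 2 targets. With the replicate block edgeR called 2898 genes, 2 members, 10 pathway genes and 5 targets. In that order of lists and also with the block, DESeq2 called 1590, 0, 4 and 4, limma-voom 3051, 3, 10 and 7, DESeq2 size factors 2961, 2, 10 and 6, total count scaling 3641, 4, 10 and 7, no filter 3128, 4, 10 and 8, the 1 CPM filter 2909, 2, 10 and 5, log2(FPKM + 1) 2857, 1, 4 and 5, log2(FPKM + 0.1) 2932, 1, 4 and 6, and the length correction 2329, 1, 9 and 6. Leaving out a pair with the block gave 736 to 4124 genes (1195 without pair 1), 0 to 3 members, 0 to 18 pathway genes and 3 to 23 targets, the lowest without pair 2 and the highest without pair 3. The split of calls into higher and lower depends on the scaling, with 2822 and 819 genes for total counts, 2392 and 465 for log2(FPKM + 1) and 2435 and 497 for log2(FPKM + 0.1), against 1412 and 1486 for TMM. The smallest adjusted p without pair 3 was 6.5e-103, while all pairs together gave 3.6e-04, and calls without pair 3 should be read with that in view. The median of the members stayed between 0.04 and 0.23 in all fits run.

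Signs turned for genes near no change, and the cause was not tested except that scalings shift all genes. Rela was 7.1e-05 with total counts (0.00097 with the block) and 0.0010 and 0.0011 with log2(FPKM + 1) and log2(FPKM + 0.1), the same with the block. Nfkbie was 0.097 with total counts (0.102 with the block), 0.091 and 0.102 on the FPKM scales, with and without the block, 0.0011 with no filter (0.0045 with the block), 0.020 without MIAT knockdown library 1, between -0.059 and 0.072 over all single libraries left out, and 0.058 without pair 2. Bcl3 was -0.0038 with the length correction and between -0.24 and 0.44 without a library. Without a library Nfkb1 ranged from -0.043 to 0.17, Nfkb2 from -0.15 to 0.28 and Rel from -0.012 to 0.40, and without pair 3 Nfkb1 was -0.14 and Nfkb2 -0.12. Depth limits low targets such as Tnf, at 1.25 CPM or less in each MIAT knockdown library.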
